A study of Mus with 12 samples.

Results

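Arg1, Mrc1, Stab1, Chil3 and Il4ra, genes of alternative macrophage activation, were followed across all 12 libraries of a study of kidney macrophages after ischemia. They were chosen by name, with earlier results of these data known. They are 5 of the 754 gene probes of an immune panel counted with NanoString, in which fluorescent barcodes are counted on single RNA molecules. The cells were selected from digested kidneys with an antibody to F4/80, a surface protein of mouse macrophages. They came from 3 KO mice (Aif-1 -/-, mice 17, 23 and 32) and 3 WT mice (Aif-1 +/+, mice 12, 26 and 36), and Aif-1 encodes a calcium-binding protein of macrophages also called Iba1. In every mouse the left kidney had undergone 30 min of ischemia, and at day 4 it was collected with the uninjured right one, called contralateral. The 4 groups of 3 were thus KO injured, KO contralateral, WT injured and WT contralateral, with the mouse as the replicate and its other kidney as its own control. The labels give neither the age, the sex nor the strain of the mice, nor how the deletion was made.

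Macrophages exposed to interleukin-4 or interleukin-13 enter a state called alternative activation. Both cytokines act through receptors that share the chain encoded by Il4ra, and the signal passes through JAK kinases to the transcription factor STAT6. In mouse macrophages Arg1, Mrc1 and Chil3 are classical markers of that state. Arg1 encodes arginase 1, which splits arginine into ornithine and urea and so withdraws the substrate of nitric oxide synthase. Mrc1 encodes the mannose receptor CD206, and Stab1 the scavenger receptor stabilin-1, both of which take up glycoproteins and debris. Chil3 encodes the chitinase-like secreted protein Ym1. In the repair of the kidney after ischemia, macrophages with these markers are known to follow an early inflammatory phase. Mrc1 and Stab1 are also expressed by some endothelial cells, and in such a selection fewer macrophages and less RNA per macrophage cannot be told apart.

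The libraries held 255274 to 904220 counts in all, and 109192 to 722084 of them were from endogenous genes. The geometric mean of 13 housekeeping genes, a measure of the amount of RNA, ran from 180 to 1470, an 8.16-fold range. The highest values were those of the injured kidney of KO mouse 17 (1078) and of both kidneys of WT mouse 12 (1470 injured, 1431 contralateral). These 3 libraries stand apart from the other 9, which ran up to 499.7. The F4/80 gene Adgre1 reached 230 to 1932 raw counts, against a mean negative control of 28.8 to 36.3 per library, so the selected cells carried their defining marker in every library. The panel also counted 4 of 10 listed kidney tubule genes, which made up 1.99% to 18.1% of endogenous counts. Their share was 2.90% to 7.48% in injured and 6.19% to 8.05% in contralateral KO kidneys, and 1.99% to 13.0% in injured and 5.68% to 18.1% in contralateral WT kidneys. Over both genotypes 3 of the 4 were called in the response to injury, Havcr1, a marker of tubule injury, higher and Egf and Fbp1 lower. Of all genes tested, 7.69% were called higher and 0.581% lower. The part of the tubule genes in the results below was not tested. The Aif1 probe read 64 to 93 raw counts in injured KO, 54 to 83 in contralateral KO, 74 to 95 in injured WT and 57 to 72 in contralateral WT kidneys. It therefore did not separate the genotypes and gave no check of the labels or of the deletion, and where in the gene it binds is not known here. Accordingly KO and WT are used below as the labels give them.

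All 5 genes passed the filter on low counts, a raw count of at least 53.1 (2 SD above the mean of all negative control counts) in 3 or more libraries. Normalised counts were scaled between libraries with TMM factors. Responses to injury came from a quasi-likelihood fit in edgeR over the 12 libraries with the mouse as a block. Benjamini-Hochberg adjustment was made over 689 genes, and a gene with an adjusted p under 0.05 was called. Counts of different probes are not on a common scale, so each gene is compared only with itself across libraries.

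**Figure D1:**
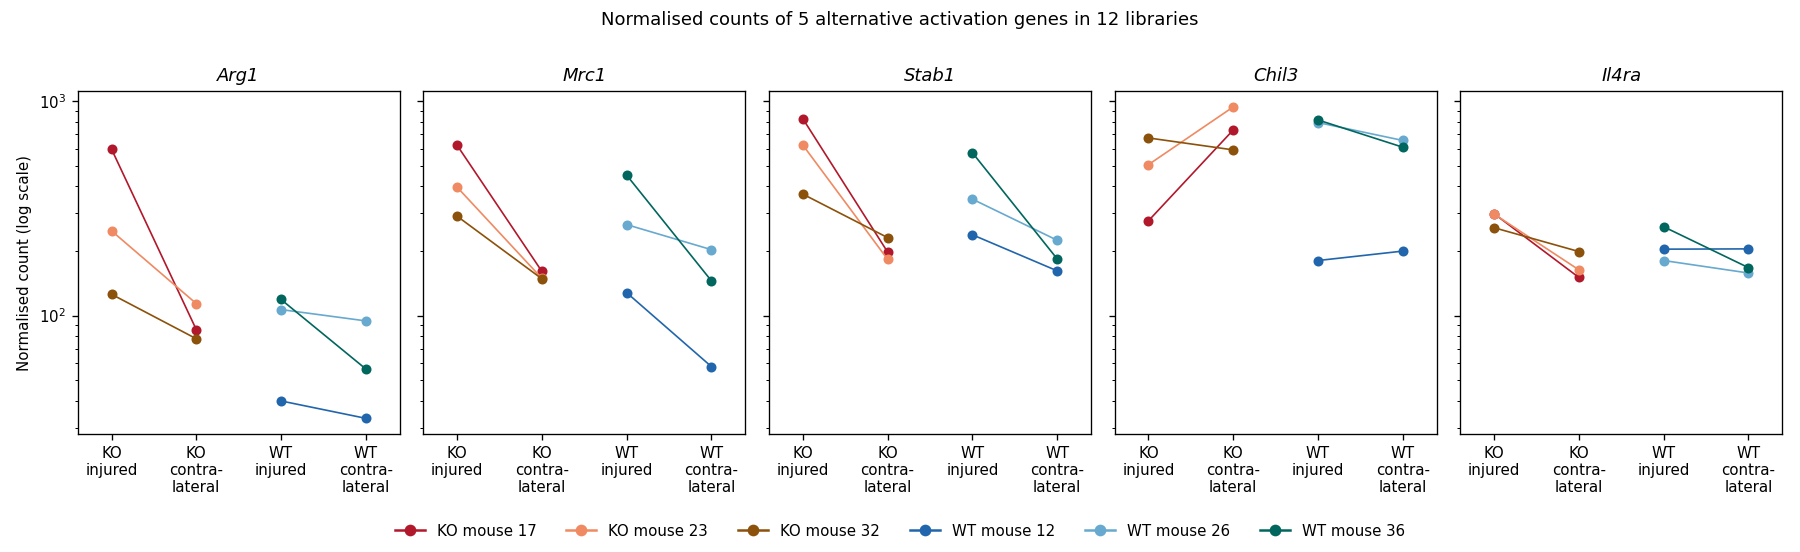
Normalised counts (log axis) of the 5 genes in each library, with a line joining both kidneys of a mouse. The injured kidney stood above its pair in 6 of 6 mice for Arg1, Mrc1 and Stab1, in 5 of 6 for Il4ra and in 3 of 6 for Chil3, and WT mouse 12 was lowest for Arg1, Mrc1, Stab1 and Chil3 in both kidneys.

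The first comparison asked how ischemic injury changed the genes when the responses of KO and WT mice were averaged. Mrc1 rose 2.39-fold and Stab1 2.34-fold in the injured kidneys, Arg1 rose 2.05-fold and Il4ra 1.42-fold, and Chil3 stood at 0.833 times its contralateral level without passing. Thus 4 of the 5 genes were called, all higher, where 7.69% of the 689 genes tested were called higher and 8.27% in either direction. The median log2 fold change was 1.04 over the 5 genes and -0.06 over all genes tested. Since the 5 genes were chosen with earlier results known, these shares and medians describe the set and do not test it. For Arg1, Mrc1 and Stab1 the injured kidney exceeded its pair in 6 of 6 mice, which held for 9% of all genes tested.

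Of the uptake receptors, Mrc1 had the smaller adjusted p. Its normalised count was 621, 396 and 290 in the injured kidneys of KO mice 17, 23 and 32, against 161, 149 and 148 in their contralateral kidneys. All 3 injured KO values lay above all 3 contralateral ones, which lay close together, and 13.1% of all genes tested were that clearly apart. In WT mice 12, 26 and 36 it was 128, 265 and 451 in injured and 57.8, 203 and 145 in contralateral kidneys. The WT groups overlapped, with mouse 12 low in both kidneys, while within each mouse the injured kidney was higher. The fitted response was 1.26 ± 0.19 on the log2 scale over both genotypes (SE, n = 6 mice, edgeR adjusted p = 0.00053), the seventh smallest p of the panel. It passed whichever mouse was left out, with values from 1.09 to 1.37.

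Stab1 followed the same order of groups. Its normalised count was 827, 623 and 368 in injured and 198, 183 and 231 in contralateral kidneys of KO mice 17, 23 and 32. In WT mice 12, 26 and 36 it was 238, 349 and 574 in injured and 162, 224 and 184 in contralateral kidneys. Neither in KO nor in WT mice did the injured and contralateral values overlap, and 3.63% of all genes tested were that clearly higher in WT mice. The contralateral values of both genotypes spanned 162 to 231, a narrower range than that of Mrc1. The fitted response was 1.23 ± 0.21 (SE, n = 6 mice, edgeR adjusted p = 0.0014), and it ranged from 1.04 to 1.41, always past the threshold, when a mouse was left out. Scaling by positive controls alone, which takes no account of the amount of RNA, gave 1.57 with an edgeR adjusted p of 0.086.

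Arg1, the enzyme of the set, was barely above background in uninjured kidneys. Its raw count was 60, 87 and 51 in the contralateral kidneys of KO mice 17, 23 and 32 and 62, 61 and 61 in those of WT mice 12, 26 and 36, close to the threshold of 53.1. In injured kidneys it read 1392, 295 and 71 in the same KO mice and 82, 88 and 98 in the WT mice. One library, the injured kidney of KO mouse 17, thus held a count 23.2 times that of its pair, while the raw ratio in the other 5 mice ran from 1.32 to 3.39. On normalised counts the injured KO values were 596, 248 and 126, all above the 40.0, 107 and 119 of the injured WT kidneys. The fitted response over both genotypes was 1.04 ± 0.24 (SE, n = 6 mice, edgeR adjusted p = 0.012). Without mouse 17 it was 0.68 and still called, and without WT mouse 36 it was 0.89 with an adjusted p of 0.13. The call was also lost with housekeeping scaling (0.97, adjusted p = 0.086), with DESeq2 (0.96, adjusted p = 0.065) and without the mouse as a block (1.18, adjusted p = 0.21). Since the contralateral counts lie so near the negative controls, the fold is understated, and subtraction of that background gave 1.44.

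Il4ra, the receptor chain upstream of the other genes, moved least among those called. Its normalised count was 298, 297 and 257 in injured and 150, 163 and 199 in contralateral kidneys of KO mice 17, 23 and 32. In WT mice 12, 26 and 36 it was 204, 180 and 259 in injured and 204, 158 and 167 in contralateral kidneys. The KO groups did not overlap, as was so for 13.1% of all genes tested with higher injured values. The WT groups did overlap, and both kidneys of mouse 12 were alike. The fitted response of 0.51 ± 0.15 (SE, n = 6 mice) had an edgeR adjusted p of 0.0495, just inside the threshold. Of the 6 fits with a mouse removed it passed in 1, the fit lacking KO mouse 32, in which 32.8% of all genes were called, and the adjusted p of the other 5 reached 0.47.

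Chil3 did not follow the other markers. Its normalised count was 276, 505 and 672 in injured and 732, 938 and 592 in contralateral kidneys of KO mice 17, 23 and 32. In WT mice 12, 26 and 36 it was 180, 793 and 816 in injured and 200, 655 and 609 in contralateral kidneys. The fitted response was -0.26 ± 0.22 (SE, n = 6 mice, 95% interval -0.74 to 0.21, edgeR adjusted p = 0.64). Without KO mouse 32 it was -0.50 and was called lower (adjusted p = 0.021), as were 17.7% of all genes. The raw count of the injured kidney was 0.836 to 1.55 times that of its pair. The raw counts were 645, 600 and 380 in injured and 511, 718 and 387 in contralateral KO kidneys, and 370, 655 and 673 in injured and 373, 423 and 659 in contralateral WT kidneys.

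The amount of RNA moved with the counts of these genes unequally. In the contralateral kidney of WT mouse 12 the housekeeping mean was 6.10 times the median of the other 5 contralateral kidneys, and the median gene of the panel stood at 1.84 times. Il4ra stood there at 3.06 times and Stab1 at 2.08 times, whereas Arg1 stood at 1.02, Mrc1 at 0.947 and Chil3 at 0.730 times. The macrophage genes Adgre1 and Csf1r stood there at only 1.14 and 1.58 times. The housekeeping mean in that library is thus not a measure of macrophage RNA alone, and the part of other cells in it was not tested. Only 4.06% of genes tested had a ratio as low as that of Chil3. Its raw count spanned 370 to 718 over an 8.16-fold range of RNA, so that dividing by library size lowers it in the libraries with much RNA. These include the injured kidney of KO mouse 17, where Chil3 had its lowest log2 response (-1.41), although the raw count there was 1.26 times that of the pair. The part of the RNA amount in the Chil3 values was not tested further.

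**Figure D2:**
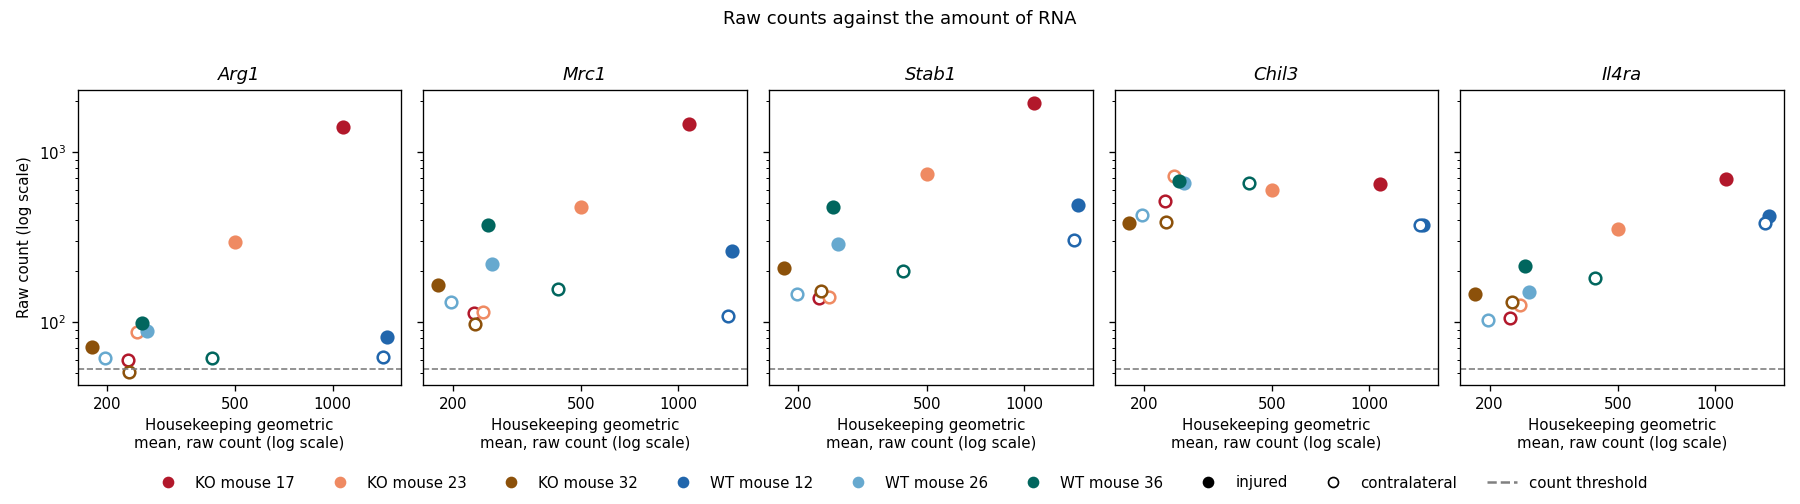
Raw count of each gene against the geometric mean of 13 housekeeping genes in the same library (both axes log), filled for injured and open for contralateral kidneys, with the count threshold of 53.1 dashed. Chil3 stayed between 370 and 718 at every amount of RNA, and contralateral Arg1 lay at 51 to 87, while Il4ra was highest in the 3 libraries with the most RNA.

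The probe of Chil4, a close paralog of Chil3 that encodes Ym2, also varied little in raw count, from 142 to 300 over the 12 libraries. Its response over both genotypes was -0.13 ± 0.19 (SE, n = 6 mice, edgeR adjusted p = 0.77). The sequences of the probes are not known here, so both counts may include RNA of the other gene. Retnla, which encodes the secreted protein Fizz1 and is another classical marker of alternative activation in mouse macrophages, read 21 to 44 raw counts and never reached the threshold.

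The genes were also set against 2 macrophage genes, Adgre1 and Csf1r, the F4/80 and the CSF1 receptor genes. This pair is not a fixed unit of macrophage RNA, since macrophage markers differed in their response to injury. The Mrc1 count was 59.4% to 79.2% of the geometric mean of that pair in injured KO kidneys, against 39.6% to 51.3% in contralateral KO kidneys. It was 52.6% to 70.4% in injured and 30.0% to 37.7% in contralateral WT kidneys, so on this scale the kidneys did not overlap in either genotype. How many of all genes were that clearly apart on this scale was not computed. Stab1 was at 75.3% to 105.5% in injured and 55.5% to 63.0% in contralateral KO kidneys, and at 69.2% to 102.5% and 41.7% to 83.9% in the WT ones. A fit scaled by these 2 genes, which moved the median of all genes to -0.64, kept Mrc1 (0.68 ± 0.19, edgeR adjusted p = 0.020) and Stab1 (0.66 ± 0.18, adjusted p = 0.020) higher. It gave 0.45 for Arg1 (adjusted p = 0.17) and -0.07 for Il4ra (adjusted p = 0.75), neither past the threshold, and called Chil3 lower (-0.84, adjusted p = 0.022), as it did 46.3% of all genes, with 49.5% called in either direction. Adgre1 itself rose by 0.67 ± 0.18 in the TMM fit (adjusted p = 0.032) and Csf1r stood at 0.47 ± 0.20 (adjusted p = 0.23). Of 12 macrophage markers measured, Adgre1 and Csf1r included, 8 were called higher and none lower, where 7.69% of all genes tested were called higher. The responses of the 12 ran from -0.11 for Aif1 to 1.31 for Cd68, with a median of 0.87, above both Adgre1 and Csf1r. Scaling by other markers was not tested, nor was the part of the markers in the rise of the 4 genes beyond this scaling. The summed normalised count of the 12 markers ran from 7118 to 12163 in injured and from 3196 to 4605 in contralateral KO kidneys. In WT mice it ran from 3857 to 8879 in injured and from 2691 to 5513 in contralateral kidneys. Of 10 endothelial and lymphatic markers, 4 were measured, all above the threshold in some library, and their sum ran from 1253 to 1825 in injured and from 1018 to 1686 in contralateral KO kidneys. It ran from 881 to 2267 in injured and from 758 to 2224 in contralateral WT kidneys, and the part of endothelial RNA in Mrc1 and Stab1 was not tested. Of 9 eosinophil, basophil and mast cell markers, 3 never reached the threshold. Their sum ran from 242 to 711 in injured and 662 to 819 in contralateral KO kidneys, and from 261 to 744 in injured and 279 to 669 in contralateral WT kidneys.

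Within KO mice 4 of the 5 genes were called, all higher, where 6.68% of all genes tested were called higher and 6.82% in either direction. The fitted response was 1.56 ± 0.35 for Arg1, 1.51 ± 0.30 for Stab1, 1.46 ± 0.27 for Mrc1 and 0.74 ± 0.21 for Il4ra (SE, n = 3 mice, edgeR adjusted p between 0.0032 and 0.048). Chil3 stood at -0.71 ± 0.32 with an adjusted p of 0.17. Without mouse 17, whose injured kidney had the most RNA of the KO libraries, the values were 0.94 for Arg1, 1.23 for Stab1 and 1.20 for Mrc1, all called. Stab1 was not called without mouse 23 (adjusted p = 0.12), and Il4ra was called only in the fit without mouse 32. In that fit Chil3 was called too, at -1.10, but so were 53.6% of all genes, with 29.5% of all genes called lower.

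Within WT mice none of the 5 was called by edgeR, where 0.726% of all genes tested were. Mrc1 stood at 1.06 ± 0.26 (SE, n = 3 mice, adjusted p = 0.090) and Stab1 at 0.94 ± 0.30 (adjusted p = 0.25), both with an unadjusted p under 0.05. Arg1 stood at 0.51 ± 0.34, Il4ra at 0.27 ± 0.21 and Chil3 at 0.19 ± 0.31. DESeq2 called Mrc1 (0.96, adjusted p = 0.027) with 2.35% of the genes it gave an adjusted p, and a fit on the 6 WT libraries alone called Mrc1 (0.99) and Stab1 (0.87) with 7.98% of all genes. Those genes were also called without KO mouse 17, with 4.11% of all genes, and without KO mouse 32, with 6.98%, although neither mouse is WT.

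**Figure D3:**
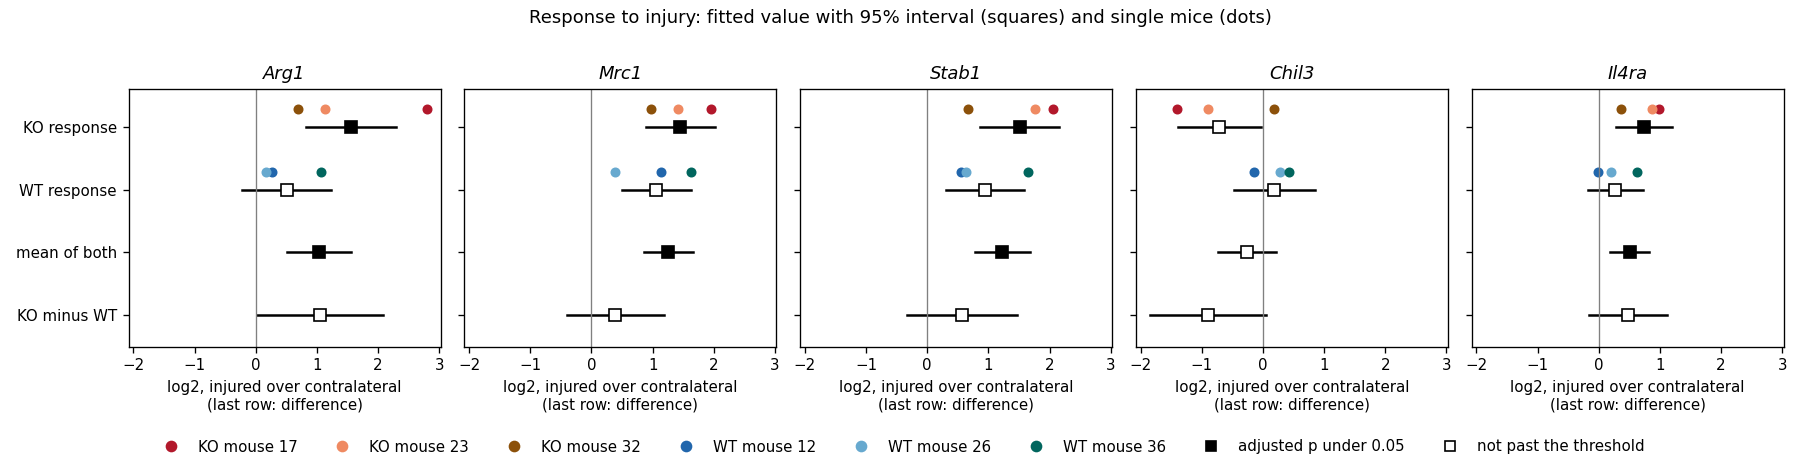
Fitted log2 responses to injury with 95% intervals (squares, filled where the adjusted p was under 0.05) and the log2 ratio of each mouse (dots), by gene. The 3 KO mice lay at 0.69 to 2.79 for Arg1 against 0.18 to 1.08 for the WT mice, and every interval of the KO minus WT difference except that of Arg1 included 0.

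Whether the response differed between KO and WT mice was tested as the difference of the responses. None of the 5 genes passed (0% of all genes tested were called, with 75 at an unadjusted p under 0.05). The difference was 1.06 ± 0.49 for Arg1 (SE, n = 3 and 3 mice, 95% interval 0.02 to 2.09, edgeR adjusted p = 0.41), the eighth largest of the panel. It was -0.90 for Chil3 (-1.85 to 0.05), 0.57 for Stab1 (-0.33 to 1.47), 0.48 for Il4ra (-0.17 to 1.12) and 0.39 for Mrc1 (-0.40 to 1.18). The intervals are wide beside the responses themselves, so the test does not show that the genotypes respond alike. Without KO mouse 17 the Arg1 difference was 0.51. Without KO mouse 32 all 5 differences were called, at 1.57 for Arg1, 1.10 for Stab1, 0.79 for Il4ra, 0.74 for Mrc1 and -1.21 for Chil3, but so were 47.2% of all genes. On the scale of Adgre1 and Csf1r the differences of Mrc1, Stab1 and Il4ra turned to -0.19, -0.01 and -0.10. The Arg1 response on that scale was 0.68 in KO and 0.23 in WT mice. Its log2 ratio was 1.66, 0.07 and 0.31 in KO mice 17, 23 and 32, and 0.001, 0.27 and 0.41 in WT mice 12, 26 and 36. Only mouse 17 thus lay above every WT mouse.

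Set side by side in injured kidneys, Arg1 was the gene with the largest excess in KO mice of all 689 tested. It averaged 323 ± 244 normalised counts in injured KO and 88.4 ± 42.4 in injured WT kidneys (SD, n = 3 each). The fitted difference was 1.89 ± 0.58 on the log2 scale, with an unadjusted p of 0.0062 and an edgeR adjusted p of 0.9997. Its normalised values did not overlap between the genotypes, as was so for 2.76% of all genes with higher KO values. The raw counts of Arg1 did overlap, with 71 in KO mouse 32 below the 82 to 98 of the WT mice. Those counts were only 2.04 to 3.24 times the mean negative control of their library, so the separation of these mice rests on the scaling. DESeq2 called Arg1 (1.94, adjusted p = 0.031) with 0.435% of all genes. Without KO mouse 17 the fitted difference was 1.13 and without WT mouse 12 it was 1.49, neither called by edgeR. Stab1 (0.65 ± 0.36), Mrc1 (0.64 ± 0.49), Il4ra (0.41 ± 0.23) and Chil3 (-0.30 ± 0.58) did not pass, and their KO and WT values overlapped. No gene was called by edgeR in this comparison (0% of all genes, 5 at an unadjusted p under 0.05).

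In contralateral kidneys none of the 5 genes passed between the genotypes, and again 0% of all genes tested were called (3 at an unadjusted p under 0.05). Mrc1 averaged 153 ± 6.9 normalised counts in KO and 135 ± 73.0 in WT kidneys, and Stab1 204 ± 24.5 in KO and 190 ± 31.8 in WT (SD, n = 3 each). Arg1 averaged 92.5 ± 18.7 in KO and 61.3 ± 30.9 in WT, and Il4ra 171 ± 25.0 in KO and 177 ± 24.6 in WT. Chil3 averaged 754 ± 174 in KO and 488 ± 251 in WT. The largest fitted differences, 0.63 ± 0.58 for Chil3 and 0.62 ± 0.58 for Arg1 (SE), were about as large as their errors.

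The order of the 4 groups by mean normalised count differed between genes. For Mrc1 and Stab1 it was injured KO, injured WT, contralateral KO and contralateral WT. Neighbours in that order overlapped, except that for Stab1 the lowest injured WT value (238) lay above the highest contralateral KO value (231). The share of all genes apart in this way was not computed. For Arg1 it was injured KO, contralateral KO, injured WT and contralateral WT. Only injured KO was clear of its neighbour, as was so for 13.1% of all genes tested. On raw counts these neighbours overlapped, with 71 in the injured kidney of mouse 32 and 87 in the contralateral kidney of mouse 23. For Il4ra it was injured KO, injured WT, contralateral WT and contralateral KO, with all neighbours overlapping. Chil3 ran in another order, contralateral KO, injured WT, contralateral WT and injured KO, again with all neighbours overlapping.

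The other genes of the pathway were read from a list. Of 14 genes listed for interleukin-4 and interleukin-13 signalling, 8 were measured and edgeR called none in any comparison. Over both genotypes 8.27% of all genes tested were called, and the median response was 0.02 over the 8 genes and -0.06 over all genes. The kinase gene Jak3 stood at 0.41 ± 0.16 (SE, n = 6 mice, edgeR adjusted p = 0.18) and Stat3, which encodes another STAT factor, at 0.38 ± 0.23. Stat6 itself stood at 0.04 ± 0.17, the feedback inhibitor genes Socs3 at 0.06 ± 0.24 and Socs1 at -0.01 ± 0.21, and Irf4, a transcription factor induced by the pathway, at -0.20 ± 0.22. The cytokine genes Il4 (41 to 83 raw counts) and Il13 (91 to 151) stood at -0.33 and -0.16.

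Of 29 further genes linked to alternative activation, 24 were on the panel and 23 were kept, of which 4 rose and 1 fell over both genotypes, where 7.69% of all genes rose and 0.581% fell. The interleukin-1 receptor antagonist gene Il1rn rose by 2.43 ± 0.29, the fibronectin gene Fn1 by 1.33 ± 0.22, the lipid-sensing receptor gene Trem2 by 1.13 ± 0.18 and Tgfb1 by 0.71 ± 0.19, and the collagenase gene Mmp13 fell by 0.91. The median over the 23 was -0.06, the same as over all genes. The beta-glucan receptor gene Clec7a stood at 0.49 ± 0.18 (adjusted p = 0.15), the vascular growth factor gene Vegfa at -0.38 ± 0.18 and the lipid-sensing nuclear receptor gene Pparg at -0.38 ± 0.20. Among 20 genes of classical activation, 19 were kept and 5 rose, Il1a (2.04 ± 0.26), Ccl5 (1.34 ± 0.21), Ptgs2 (1.10 ± 0.19), Cxcl10 (0.70 ± 0.21) and Tnf (0.66 ± 0.18), again beside 7.69% of all genes. The median over the 19 was 0.06, and Nos2, the nitric oxide synthase gene that competes with arginase for arginine, stood at -0.17 ± 0.24 and was named after its value was seen. Members of both lists thus rose in the same kidneys, and no test set one list against the other. Of these members, Il1rn and Il1a passed the filter only through injured kidneys, reaching the threshold in 5 and 3 libraries. Their contralateral raw counts were 16 to 24 and 8 to 24, below the negative control mean of 31.7. The folds of Il1rn and Il1a are thus ratios to background.

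**Figure D4:**
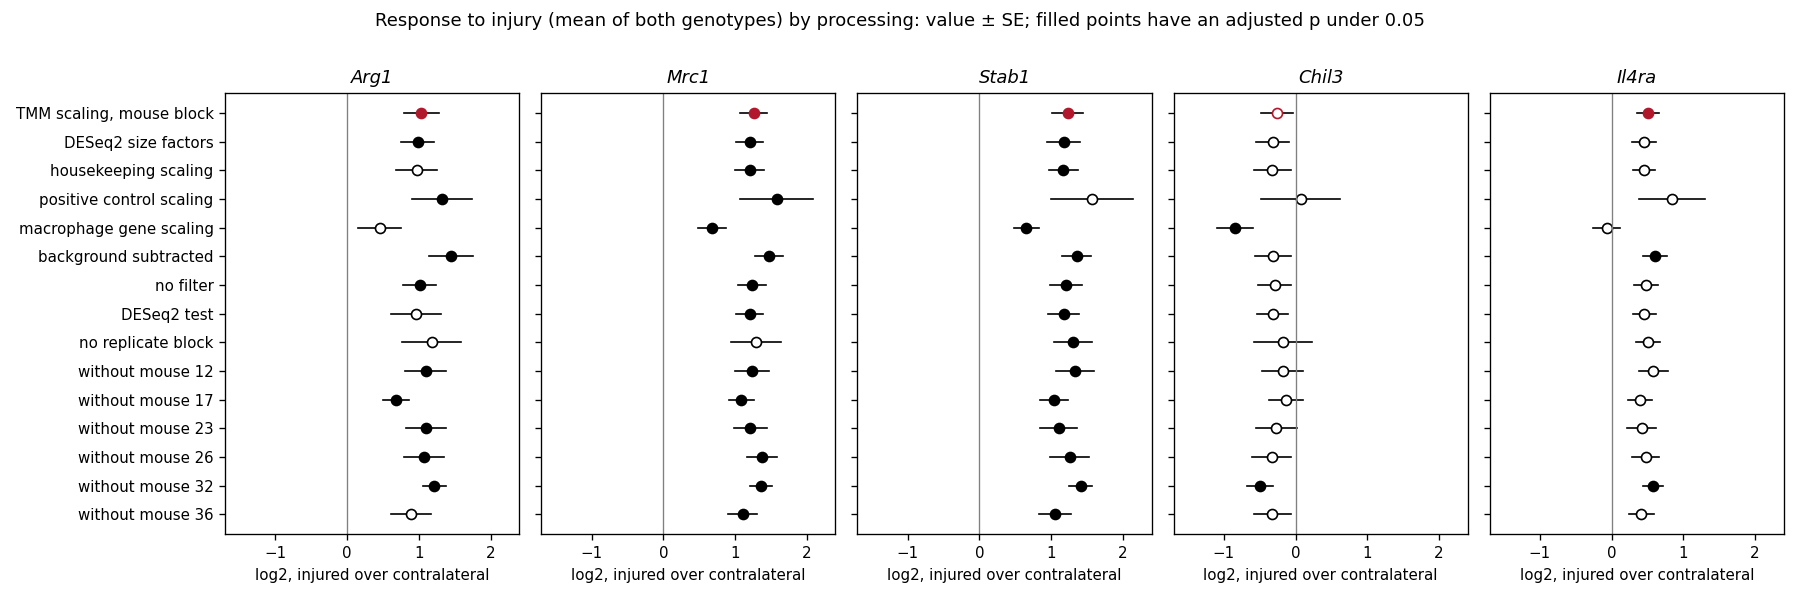
Log2 response to injury over both genotypes under each way of processing (value ± SE, filled where the adjusted p was under 0.05), by gene, with the values reported above in red. Mrc1 and Stab1 were positive throughout and called in all but 1 setting each, whereas Il4ra was called in 3 of the 15 settings.

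The genes most like each member over the 12 libraries were found by Pearson correlation of log2 normalised counts, a description in which all points share the same libraries and scaling. Mrc1 was closest to Itgam, C3ar1 and Mpeg1 (r from 0.983 to 0.986), a phagocyte integrin chain, the receptor for complement fragment C3a and a pore-forming protein of macrophages. Stab1 was closest to the chemokine gene Ccl9, the phagocyte marker Cd68 and the inhibitory receptor gene Sirpa (0.969 to 0.980). Arg1 was closest to Pf4, Adam8 and Fcgr2b (0.920 to 0.938), which encode platelet factor 4, a membrane protease and the inhibitory Fc gamma receptor. Il4ra was closest to Marcksl1, Tgfb1 and Rgl1 (0.884 to 0.907). Chil3 was closest to Fpr-rs4, Cd244 and Il33 (0.990 to 0.992), whose raw counts spanned 130 to 227, 94 to 202 and 98 to 179, beside 370 to 718 for Chil3 itself. Among the members, Mrc1 and Stab1 correlated at 0.927, Arg1 and Mrc1 at 0.884 and Stab1 and Il4ra at 0.855, while Chil3 correlated with the other 4 at -0.31 to 0.29.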

How the data were processed

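The authors deposited raw NanoString counts of 768 probes (741 endogenous, 13 housekeeping, 6 positive and 8 negative controls) in 12 libraries, whole numbers whose totals differ between libraries; counting software is not stated in the labels. The 5 genes and all lists were chosen with earlier results of these data known. Genes at 53.1 counts or more in at least 3 libraries were kept (689) and scaled by TMM, and a normalised count is the count over the effective library size relative to the geometric mean of the libraries. edgeR 4.0.16 (quasi-likelihood) in R 4.3.3 gave the log2 fold changes, with SE from the F statistic and Benjamini-Hochberg adjustment over all kept genes. Responses to injury had the mouse as a block, since both kidneys come from 1 animal. Deviations from group means of the 2 kidneys of a mouse correlated at 0.722 to 0.957 in WT mice. In KO mice 17, 23 and 32 they correlated at -0.125, 0.365 and -0.489. Deviations of 3 libraries from their own mean cancel out, so 1 unusual library shapes those of the others. Both libraries of WT mouse 12 were rich in RNA, but only the injured library of KO mouse 17. These correlations therefore cannot tell likeness of paired kidneys from the spread in RNA amount. All 12 libraries shared 1 estimate of the spread. KO and WT were compared per kidney side by group means without the block. Alternatives were other scalings, background subtraction, no filter, DESeq2, fits without the block or on fewer groups, and leaving out each mouse. On simulated counts for the mean response over 689 genes, 96% of 2-fold changes were recovered and 1.43% of unchanged genes were called. Those counts were drawn from the fitted model with the same response in every mouse of both genotypes. Recovery may be lower in the data, where mice responded unequally. The named genes are the 5 members, their 3 closest genes by correlation and all measured interleukin-4 and interleukin-13 signalling genes, and of the other activation lists the genes called plus up to 3 more with the smallest p. Symbols of 744 of 754 gene probes matched a RefSeq gene table directly and 9 by synonym. Levels of different probes were not ranked against each other, and counts per Adgre1 and Csf1r were compared only across libraries. Totals of 255274 to 904220 counts and 3 mice per genotype limit the precision.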

Additional observations from a re-analysis of the deposited data

Results flagged for a closer look

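The log2 response of Arg1 in KO mouse 17 was 2.79, far from those of the other KO mice (1.13 and 0.69) and of the WT mice (0.27, 0.18 and 1.08). The gap to the nearest mouse was 0.637 of the whole range over the 6 mice, above Dixon's critical value for 6 values. Groups of 3 mice were too small for this rule. Chance alone marks about 1 in 20 such groups.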

How the results depend on the processing

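Over both genotypes 4 of the 5 genes were called. That count was 2 with housekeeping scaling, 2 with positive control scaling, 2 with DESeq2, 1 without the mouse as a block, and 2 to 5 when a mouse was left out. In KO mice the 4 became 2 with housekeeping scaling, 1 with positive control scaling, 2 with the macrophage gene scaling, 0 without the mouse as a block, and 2 to 5 when a mouse was left out. The 2 with macrophage gene scaling were Stab1, higher, and Chil3, lower (-1.59). In KO mice and over both genotypes, the 5 came without KO mouse 32 and were 4 higher and Chil3 lower. In WT mice the 0 became 1 with DESeq2, 2 in the WT libraries alone, and 0 to 2 when a mouse was left out. The difference of the responses gave 0 to 5, with 5 only without KO mouse 32, and injured KO against injured WT gave 1 with DESeq2.

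Over all genes, 57 were called over both genotypes, against 14 without the block, 341 with macrophage gene scaling and 27 to 226 when a mouse was left out. In KO mice 47 were called, against 24 with housekeeping scaling, 417 with macrophage gene scaling, 106 with DESeq2, 27 in the KO libraries alone, 3 without the block and 11 to 369 when a mouse was left out. In WT mice 5 were called, against 14 with DESeq2, 55 in the WT libraries alone, 2 with positive control scaling, 0 with housekeeping or macrophage gene scaling or without the block, and 0 to 48 when a mouse was left out. The difference gave 0, against 325 without mouse 32.

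Signs turned in 21 values, and the cause was not tested. With macrophage gene scaling, Il4ra turned to -0.067 over both genotypes, -0.0146 in WT and -0.12 in KO mice and -0.23 between injured kidneys, Chil3 to -0.10 in WT mice, and the differences of Mrc1, Stab1 and Il4ra to -0.19, -0.0146 and -0.10. With positive control scaling, Chil3 turned to 0.0756 over both genotypes, and Mrc1 and Stab1 to -0.26 and -0.57 between contralateral kidneys. Chil3 between injured kidneys ran from -0.77 to 0.00309 when a mouse was left out, the highest without mouse 17. Between contralateral kidneys Stab1 was -0.0486 with DESeq2 size factors, -0.0549 with no filter, -0.0488 with DESeq2, -0.0467 in those libraries alone, and -0.15 (without mouse 32) to 0.0855 when a mouse was left out. There Mrc1 ran from -0.23 (without mouse 12) to 0.45, Il4ra from -0.36 to 0.024 (without mouse 12), and Il4ra was 0.33 with housekeeping scaling. The scaling moved the median gene over both genotypes from -0.06 to -0.64 with macrophage genes and to 0.27 with positive controls.

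Contralateral Arg1, at 51 to 87 raw counts, lies near the negative controls, which limits its fold. The injured counts of 71 in KO mouse 32 and 82 to 98 in the WT mice lie near them too.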
